A study of Mus musculus with 9 samples.

Results

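The 6 genes Il21, Cd40lg, Tigit, Sh2d1a, Bcl6 and Maf, which belong to the program of follicular helper T cells, were followed across 9 mouse RNA-seq libraries. They were taken by name from a table of 56860 genes, of which 39791 had a count in at least 1 library and 19348, with all 6 among them, had enough counts to be tested. The RNA came from spleen preparations labelled CD4+ T cells. A group of 3 libraries was from mice labelled CIA that had been given luteolin, a plant flavone, another 3 were from mice labelled CIA alone, and 3 were from mice labelled control. The first 3 are called the luteolin libraries below. The labels leave CIA without its full name, and the series title speaks of RA and of how Th17 cells, which make interleukin-17, arise. Strain, age, dose and time of treatment are not given in the labels. Nothing in them says that the libraries of a group came from separate animals, so the p-values measure only the spread between these samples, which may be technical.

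Follicular helper T cells are CD4+ T cells that move into B cell follicles and help B cells through the germinal centre reaction, in which antibodies gain affinity. Bcl6 encodes the transcriptional repressor that the program depends on, and Maf encodes a transcription factor that binds to the Il21 gene and favours its expression. IL-21 and CD40 ligand are the signals that these cells give to B cells, SAP, the product of Sh2d1a, is an adaptor that lets T and B cells stay in contact through receptors of the SLAM family, and TIGIT is an inhibitory receptor. None of these genes is confined to follicular helper cells. Germinal centre B cells also express Bcl6, regulatory T cells and NK cells express Tigit, macrophages, Th17 cells and regulatory T cells express Maf, and activated CD4+ T cells of other kinds express Cd40lg.

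Library totals were 33436951 to 41815573 counts in the luteolin group, 31851523 to 35670309 in CIA and 31234177 to 40553934 in the libraries labelled control. The labelled cell type was checked with its defining gene. Cd4 stood at 98.5 to 106 CPM (library-size-normalised counts, scaled by TMM) in the luteolin libraries, 82.1 to 151 CPM in CIA and 2.46 to 3.65 CPM in the libraries labelled control. Cd8a, which marks cytotoxic T cells, stood at 3.44 to 5.06 CPM in the luteolin libraries, 4.0 to 5.28 CPM in CIA and 14.4 to 19.7 CPM in the libraries labelled control. The libraries labelled control thus held little of the transcript that names their cell type, and they are named by that label throughout. Markers of other cells also moved with the groups. The 10 B cell markers summed to 543 to 667 CPM in the luteolin libraries, 351 to 2040 CPM in CIA and 2570 to 2670 CPM in the libraries labelled control, and 12 neutrophil markers summed to 7830 to 8280 CPM, 5750 to 9900 CPM and 1880 to 2290 CPM in the same order of groups. S100a9 made up much of the neutrophil sums, at 3780 to 4290 CPM in the luteolin libraries, 4780 to 8340 CPM in CIA and 1500 to 1930 CPM in the libraries labelled control. The 12 genes did not move together in luteolin against CIA, where 6 rose, 5 fell and 1 did not pass. Of all tested genes 23.1% rose and 24.2% fell there. In bulk RNA of this kind, fewer cells of a type and less RNA per cell cannot be told apart.

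All 6 genes were higher in CIA than in the libraries labelled control, by 3-fold to 79.8-fold, and no CIA library overlapped with a library labelled control for any of them. The upper value is that of Il21, whose counts were shared with an antisense gene model. In that comparison 51.1% of all tested genes passed, 26.6% higher and 24.5% lower, and 29.7% were higher with no overlap between the groups. Set against CIA, the luteolin libraries differed in 3 of the 6 genes. Bcl6 was 3.41-fold lower, Tigit was 1.66-fold lower and Maf was 1.54-fold higher, while Il21, Cd40lg and Sh2d1a did not pass the test. There 47.3% of all tested genes passed, 23.1% higher and 24.2% lower, so the count of 3 in 6 was near the background. Calls are those of edgeR's quasi-likelihood test with Benjamini-Hochberg adjustment over the 19348 genes, at an adjusted p under 0.05. The 2 comparisons share the CIA libraries, so their values for a gene are not independent of each other.

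**Figure D1:**
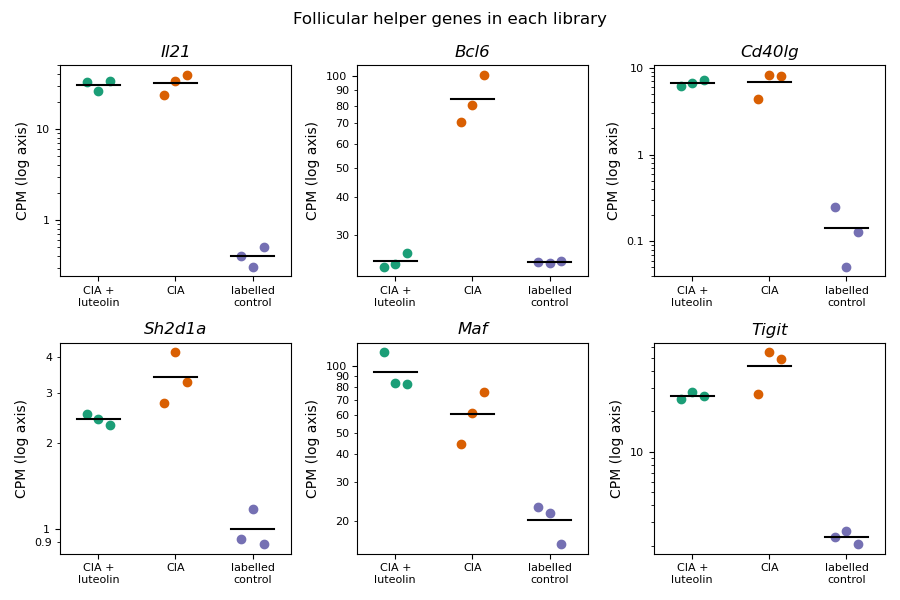
Levels of the 6 follicular helper genes in CPM, scaled by TMM, on log axes with a separate range per gene. Points are single libraries and lines are means of 3. Bcl6 sits at 23.7 to 26.3 CPM in the luteolin libraries, overlapping with the libraries labelled control and below CIA, whereas Il21 and Cd40lg overlap between luteolin and CIA and lie far above the libraries labelled control.

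Il21 lies on chromosome 3 of mm39 at 37276908 to 37286785, on the minus strand, with 5259 exonic bases. Its level was 32.8, 26.3 and 33.4 CPM in the luteolin libraries, against 23.5, 33.6 and 39.3 CPM in CIA. The libraries labelled control had 0.4, 0.307 and 0.506 CPM, from 16, 12 and 16 counts. The luteolin and CIA libraries overlapped, and each stood far above every library labelled control. The log2 fold change was -0.06 ± 0.18 for luteolin against CIA (SE, adjusted p = 0.809, edgeR's quasi-likelihood test) and 6.32 ± 0.26 for CIA against control (adjusted p = 3.65e-07), which is 79.8-fold.

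These Il21 counts lay almost wholly in a small part of the gene. Gm12534, a gene model on the opposite strand, has 469 exonic bases, in blocks of 434 and 35 bases, and every one of them falls within the exons of Il21. It held 6531 counts over the 9 libraries, against 6776 for Il21. How the table treats such bases was checked on genes of at least 150 exonic bases and at least 100 counts that lie wholly within the exons of another gene, whatever the count of that other gene. None was above the enclosing gene in any of the 9 libraries, for 59 of 59 on the same strand and 128 of 128 on the opposite strand, of which 19 and 22 held at least 50% of the enclosing gene's counts. Reads there thus appear to have been counted for both genes and without regard to strand, and on that reading 96.4% of the Il21 counts lay in 8.92% of its exonic bases. Per kilobase, the counts within the bases of Gm12534 were 2166.3 to 2835.8 in the luteolin libraries, 1756.9 to 2379.5 in CIA and 17.1 to 34.1 in the libraries labelled control. The rest of Il21, over 4790 bases, held 6.05 to 10.86, 4.38 to 15.24 and 0 to 0.84 counts per kilobase in the same order of groups. The larger block of Gm12534 ends in a purine-rich stretch, shown because it is part of the bases that hold nearly all Il21 counts. Of its 141 bases, 76.6% are A or G, against 45.7% of the 293 bases before them in the block, and it holds 13 copies of AGACA, given in capitals, of the 14 in the block. The sequence is from GENCODE M21 on GRCm38, chr3:37231626-37231766, plus strand, and was chosen after the counts were seen.
Gm12534: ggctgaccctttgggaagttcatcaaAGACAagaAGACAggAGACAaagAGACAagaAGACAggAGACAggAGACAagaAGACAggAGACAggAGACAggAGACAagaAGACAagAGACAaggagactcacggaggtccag
The stretch repeats a short unit with few changes. In GENCODE M21 the larger block falls within Il21 exons only in a transcript annotated as a retained intron. Where these reads arose, in Il21, in Gm12534 or elsewhere, was not tested.

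Outside the bases of Gm12534, Il21 had 52, 29 and 29 counts in the luteolin libraries, against 21, 35 and 73 in CIA, and 0, 4 and 2 in the libraries labelled control. The luteolin and CIA ranges overlapped, and each lay above the libraries labelled control. In CIA against control the summed counts were 129 against 6, and the depth-scaled ratio was 23.7 (exact 95% interval 10.6 to 65.8). Halving the counts, because the mates of a read pair were apparently counted one by one, gave 7.75 to 118. Such intervals cover counting error only. In a fit that was added after the data were seen and that left out the counts shared with Gm12534, the log2 fold change of Il21 was 4.52 ± 0.77 in CIA against control (adjusted p = 0.000784, edgeR) and -0.49 ± 0.52 in luteolin against CIA (adjusted p = 0.469). The call in CIA against control stood with and without those counts, and the fold was smaller without them.

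**Figure D2:**
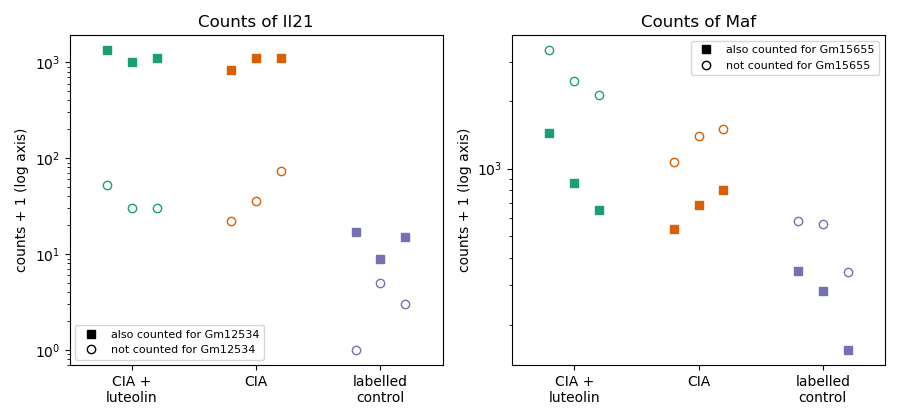
Counts of Il21 (left) and Maf (right) in each library, split into those also counted for the antisense gene model (filled squares) and those not (open circles), as counts + 1 on log axes. For Il21 the filled squares exceed the open circles in every library, at 824 to 1330 counts in luteolin and CIA, whereas for Maf the open circles are the higher ones in every library.

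The RefSeq promoter table, on GRCm38.p6, held windows for 3 of the 6 genes, Il21, Bcl6 and Tigit. No window was matched for Cd40lg, Sh2d1a or Maf. The 250 bases before each start were searched on both strands for 3 motifs, the MAF half-site TGCTGA, the BCL6 motif TTCCTNGAA and the STAT motif TTCNNNGAA, of which the BCL6 motif is a special case of the STAT motif. The Il21 window is shown because Maf and Il21 are both members, with its single MAF half-site in capitals, 234 to 229 bases before the start. It is chr3:37232637-37232886, minus strand.
Il21 promoter: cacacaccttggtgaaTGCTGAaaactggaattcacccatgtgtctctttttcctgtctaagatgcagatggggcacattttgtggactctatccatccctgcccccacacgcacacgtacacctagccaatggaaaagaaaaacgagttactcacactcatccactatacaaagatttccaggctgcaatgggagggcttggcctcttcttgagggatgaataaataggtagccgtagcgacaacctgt
The half-site is short, and 16.1% of 32851 windows of the same length held at least 1.

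Cd40lg, which encodes the CD40 ligand that T cells show to B cells, lies on chromosome X of mm39 at 56257503 to 56269402, on the plus strand, and shares no exonic base with another gene. Its level was 6.22, 6.67 and 7.13 CPM in the luteolin libraries and 4.31, 8.25 and 8.11 CPM in CIA. In the libraries labelled control it was 0.25, 0.0512 and 0.127 CPM, from 10, 2 and 4 counts. The pattern was that of Il21, with luteolin and CIA overlapping and both far above the libraries labelled control. CIA against control gave 682 against 16 summed counts and a depth-scaled ratio of 47.0 (exact 95% interval 28.7 to 82.6, or 23.6 to 110.0 with counts halved). The log2 fold change in that comparison was 5.54 ± 0.40 (adjusted p = 5.95e-06, edgeR), and in luteolin against CIA it was -0.04 ± 0.26 (adjusted p = 0.903). Activated platelets also carry CD40 ligand, and the 7 platelet and megakaryocyte markers summed to 86.8 to 91.8 CPM in the luteolin libraries, 21.0 to 45.7 CPM in CIA and 5.0 to 7.0 CPM in the libraries labelled control. Itga2b and Pf4 made up most of these sums. They stood at 58.2 to 61.9 and 23.6 to 25.4 CPM in luteolin, and at 14.6 to 31.8 and 2.17 to 6.15 CPM in CIA. In luteolin against CIA 2 of the 7 rose, 1 fell and 4 did not pass, whereas 23.1% of all tested genes rose and 24.2% fell. The part of platelets and megakaryocytes in the Cd40lg level was not tested.

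Tigit, the inhibitory receptor that binds PVR and nectins on other cells, lies on chromosome 16 of mm39 at 43469230 to 43484509, on the minus strand, and shares no exonic base with another gene. Its level was 24.7, 27.9 and 25.9 CPM in the luteolin libraries, against 26.9, 54.7 and 48.5 CPM in CIA. The libraries labelled control had 2.33, 2.59 and 2.06 CPM. CIA replicate 1 fell within the luteolin range, so those groups overlapped, while both lay above the libraries labelled control. The log2 fold change was -0.73 ± 0.21 in luteolin against CIA (adjusted p = 0.0159, edgeR) and 4.21 ± 0.25 in CIA against control (adjusted p = 2.54e-06), an 18.6-fold difference. The first call was lost without luteolin replicate 1 (-0.68), without luteolin replicate 3 (-0.71) and without CIA replicate 2 (-0.52). Over all alternatives its adjusted p ran from 1.55e-06, in the edgeR fit with no filter, to 0.076, without CIA replicate 2. The Tigit window held none of the 3 motifs. Foxp3, the factor that defines regulatory T cells, which also express Tigit, had 73.1, 68.2 and 74.4 CPM in the luteolin libraries, against 25.6, 32.1 and 36.3 CPM in CIA and 18.8, 17.4 and 16.1 CPM in the libraries labelled control. It was 2.29-fold higher in luteolin against CIA (adjusted p = 2.95e-05), where Tigit was lower, and 1.8-fold higher in CIA against control (adjusted p = 0.000347), where Tigit was higher. The part of regulatory T cells in the Tigit level was not tested.

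Sh2d1a encodes SAP, the adaptor that links SLAM family receptors to the kinase FYN. It lies on chromosome X of mm39 at 41591330 to 41618207, on the plus strand, and 26.61% of its exonic bases are shared with Tenm1 on the other strand, which had only 10 counts in all libraries together. Sh2d1a was the lowest member per kilobase in the luteolin and CIA groups, and had 2.52, 2.42 and 2.32 CPM in the luteolin libraries and 2.75, 4.15 and 3.28 CPM in CIA. It had 0.925, 1.18 and 0.886 CPM in the libraries labelled control. Each luteolin library lay below each CIA library, as for 27.7% of all tested genes, yet the log2 fold change of -0.49 ± 0.20 did not pass (adjusted p = 0.0655, edgeR). It passed without CIA replicate 1, at -0.61 (adjusted p = 0.0258), with upper-quartile scaling (-0.55) and with halved counts (-0.51), and its adjusted p over the alternatives ran from 0.0258 to 0.258. In CIA against control Sh2d1a was 3.39-fold higher, at 1.76 ± 0.21 (adjusted p = 0.000121).

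Bcl6, the repressor at the centre of the program, lies on chromosome 16 of mm39 at 23783802 to 23807602, on the minus strand, and shares 0.31% of its 6700 exonic bases with Gm37419. Its level was 23.7, 24.1 and 26.3 CPM in the luteolin libraries, against 70.6, 80.3 and 101.0 CPM in CIA. The libraries labelled control had 24.6, 24.3 and 24.8 CPM. The CIA libraries stood apart from both other groups, which overlapped. The log2 fold change was -1.77 ± 0.12 in luteolin against CIA (adjusted p = 1.99e-06, edgeR) and 1.77 ± 0.12 in CIA against control (adjusted p = 5.45e-06). Luteolin against control gave 0.01 ± 0.12 (adjusted p = 0.975), so Bcl6 was the 1 member of the 6 that did not pass in that comparison. The other 5 were higher there, where 45% of all tested genes passed, 24.2% higher and 20.8% lower, and 32.3% were higher without overlap. In none of the 18 alternatives was the call of Bcl6 lost in luteolin against CIA, where its log2 fold change ran from -1.87 to -1.62. Bcl6 is also a gene of germinal centre B cells and of other blood cells, and its part from such cells was not tested. The 10 B cell markers passed in the lower direction in 2 of 10 cases in luteolin against CIA, where 24.2% of all tested genes did. Their median log2 fold change there was -0.95, and their sums ran from 351 to 2040 CPM within CIA. In CIA against control they did so in 7 of 10 cases, with a median of -1.23, where 24.5% of all tested genes did. Bcl6 itself was higher in that comparison.

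Of the promoter windows given for Bcl6, one is shown because it was among few windows with repeated STAT motifs. It lies at chr16:23981284-23981533, minus strand, and its 3 STAT motifs are in capitals, at 168 to 160, 122 to 114 and 88 to 80 bases before the start. The first of them also matches the BCL6 motif.
Bcl6 promoter: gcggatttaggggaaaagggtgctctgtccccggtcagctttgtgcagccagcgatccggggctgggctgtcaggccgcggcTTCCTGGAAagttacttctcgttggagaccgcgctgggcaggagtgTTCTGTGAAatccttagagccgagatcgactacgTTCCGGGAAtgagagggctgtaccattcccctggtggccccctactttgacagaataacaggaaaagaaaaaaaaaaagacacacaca
Of 32851 windows, 1.31% held a BCL6 motif, 7.02% held at least 1 STAT motif and 9 windows, or 0.0274%, held 3 or more. The other Bcl6 window, chr16:23988853-23989102, held 1 STAT motif and no BCL6 motif. A match of letters is a description and shows no binding.

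Maf lies on chromosome 8 of mm39 at 116409681 to 116434533, on the minus strand. Its level was 115.0, 83.5 and 82.7 CPM in the luteolin libraries, against 44.7, 61.2 and 76.4 CPM in CIA. The libraries labelled control had 23.2, 21.7 and 15.8 CPM. The groups did not overlap, with luteolin highest, CIA between and the libraries labelled control lowest, and in luteolin against CIA 28% of all tested genes were higher without overlap. The log2 fold change was 0.63 ± 0.21 in luteolin against CIA (adjusted p = 0.0289, edgeR), 1.58 ± 0.21 in CIA against control (adjusted p = 0.000217) and 2.21 ± 0.22 in luteolin against control (adjusted p = 2.79e-05). The first call was lost without luteolin replicate 1 (0.46), without CIA replicate 1 (0.45) and without CIA replicate 2 (0.63). Its adjusted p over the alternatives ran from 2.48e-07, in the edgeR fit with no filter, to 0.121, without luteolin replicate 1. The antisense gene model Gm15655, whose 440 bases lie wholly within Maf exons, held 27.0% of the Maf counts in luteolin, 33.7% in CIA and 34.4% in the libraries labelled control. Without those counts, in the fit added after the data were seen, the luteolin difference was 0.77 ± 0.18 (adjusted p = 0.00606) and that of CIA against control 1.59 ± 0.19 (adjusted p = 0.000115). Macrophage markers also rose in luteolin against CIA, in 11 of 13 cases, where 23.1% of all tested genes rose. Their median log2 fold change was 5.44 over the 13. Their summed levels were 918 to 1190 CPM in luteolin and 604 to 1070 CPM in CIA, of which Hmox1, which did not pass (adjusted p = 0.215, edgeR), made up 382 to 570 CPM in luteolin and 440 to 865 CPM in CIA. Siglec1, a receptor of tissue macrophages, stood at 14.8 to 17.5 CPM in luteolin and 0 to 0.132 CPM in CIA. Regulatory T cell markers rose in 4 of 7 cases, beside the same 23.1%. They summed to 300.0 to 319 CPM in luteolin and 180.0 to 271 CPM in CIA. C1qa was at 0 counts in CIA replicates 2 and 3, and the part of either cell type in the Maf level was not tested.

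In luteolin against control the 5 genes other than Bcl6 stood higher without overlap. Their log2 fold changes were 6.26 ± 0.26 for Il21 (adjusted p = 2.24e-07, edgeR), 5.50 ± 0.40 for Cd40lg (adjusted p = 4.50e-06), 3.49 ± 0.25 for Tigit (adjusted p = 3.75e-06), 2.21 ± 0.22 for Maf and 1.27 ± 0.22 for Sh2d1a (adjusted p = 0.000883). Without the counts shared with Gm12534 the value of Il21 was 4.03 ± 0.78 (adjusted p = 0.00187). Over all alternatives its adjusted p ran from 3.06e-215, in the edgeR fit with no filter, to that 0.00187. This comparison shares its libraries with the other two.

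**Figure D3:**
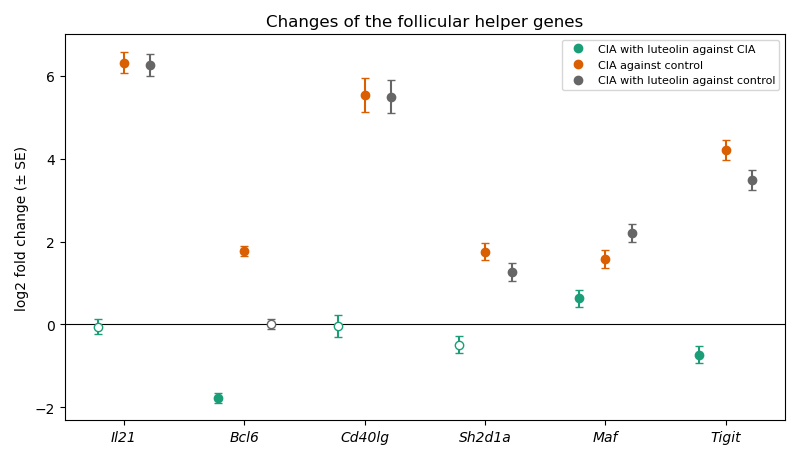
Log2 fold changes of the 6 genes, with the SE as bars, from edgeR's quasi-likelihood fit to 9 libraries. Filled points passed an adjusted p of 0.05 and open points did not. For Bcl6 the values are -1.77 in luteolin against CIA, 1.77 in CIA against control, and 0.01 for the luteolin libraries set against those labelled control, while Il21 and Cd40lg lie near 0 in luteolin against CIA and above 5 in the other 2 comparisons.

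Among themselves the 6 genes stood in a different order in each group when levels were set per kilobase of exon. In the luteolin libraries Tigit led with a level of 28.5 ± 1.72 CPM per kilobase (SD, n = 3), followed by Maf at 11.4 ± 2.22. Il21 at 5.86 ± 0.747 and Cd40lg at 5.34 ± 0.363 overlapped, and Bcl6 at 3.69 ± 0.21 and Sh2d1a at 0.439 ± 0.0181 were below them. In CIA, Tigit again led at 47.2 ± 15.9 CPM per kilobase (SD, n = 3), with Bcl6 second at 12.6 ± 2.35, and Maf, Il21 and Cd40lg overlapped as neighbours between 5.51 and 7.37 on average. In the libraries labelled control Bcl6 led at 3.67 ± 0.0359 CPM per kilobase (SD, n = 3), Tigit at 2.53 ± 0.288 and Maf at 2.46 ± 0.479 overlapped, and Sh2d1a, Cd40lg and Il21 lay at 0.181, 0.114 and 0.0769 on average, each overlapping the next. The level of Il21 per kilobase spreads counts from 1 short stretch over the whole gene.

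Library by library, CIA replicate 1 had the lowest level of all 6 genes within CIA, and its Cd4 was also lowest there, at 82.1 CPM against 151 and 150 CPM in the other two. Its log2 deviations from the CIA mean ran from -0.63 for Tigit to -0.24 for Bcl6. The other two CIA libraries were each above the mean for 5 of the 6 genes. The luteolin libraries had no such library, with 3 of 6 genes above the mean in each.

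To set the genes beside T cell content, counts were divided by those of the CD3 complex genes Cd3d, Cd3e, Cd3g and Cd247, which all T cells express. The scale thus takes in T cells of every kind and makes no allowance for the CD4+ part. Under the control label, Cd4 came to only 84 to 146 counts beside 3517 to 5214 of the CD3 complex. Under the CIA label it came to 2955 to 5172 beside 6859 to 9223. In luteolin against CIA, Cd3e was 1.54-fold lower (adjusted p = 0.0267, edgeR) and Cd247 1.42-fold lower (adjusted p = 0.000954), whereas Cd3d (-0.04 ± 0.18 on the log2 scale, adjusted p = 0.879) and Cd3g (-0.36 ± 0.20, adjusted p = 0.164) did not pass. All 4 rose in CIA against control, by 1.71-fold for Cd3d to 2.86-fold for Cd3e. Bcl6 had 134, 128 and 149 counts per 1000 CD3 complex counts in the luteolin libraries, against 370, 298 and 380 in CIA. The libraries labelled control had 189, 187 and 223. On this scale all luteolin libraries lay below both other groups, with a ratio of means of 0.392 against CIA and 0.687 against control. Maf had 649, 444 and 469 counts per 1000 in the luteolin libraries, 234, 227 and 286 in CIA and 178, 167 and 142 in the libraries labelled control, so the 3 groups stayed apart, with luteolin 2.09 times CIA. Cd40lg had 35.2, 35.5 and 40.4 counts per 1000 in the luteolin libraries, against 22.6, 30.6 and 30.4 in CIA and 1.92, 0.394 and 1.14 in the libraries labelled control. Its luteolin and CIA libraries did not overlap on this scale, at a ratio of 1.33, whereas they overlapped in CPM.

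Il21, Tigit and Sh2d1a overlapped between luteolin and CIA on the CD3 scale. Il21 had 186, 140 and 189 counts per 1000 in the luteolin libraries, 123, 124 and 148 in CIA and 3.07, 2.37 and 4.55 in the libraries labelled control. Tigit averaged 145 ± 4.47 counts per 1000 in the luteolin libraries, 175 ± 31.5 in CIA and 18.7 ± 1.07 in the libraries labelled control (SD, n = 3 each). Sh2d1a averaged 13.4 ± 0.73, 14.0 ± 1.59 and 8.04 ± 0.991 in the same order of groups. Relative to CD3 complex genes the Tigit ratio of luteolin to CIA was thus 0.828, within the spread of the libraries. All 6 genes were higher in every CIA library than in every library labelled control, with ratios of means from 1.53 for Maf to 39.6 for Il21. Without the counts shared with Gm12534 the Il21 ratio was 11.7, below the 24.2 of Cd40lg. The share of all genes without overlap on this scale was not counted. These ratios are descriptions, with no test. They do not separate the level of a gene from the CD4+ part of the T cells, whose share in them was not tested.

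**Figure D4:**
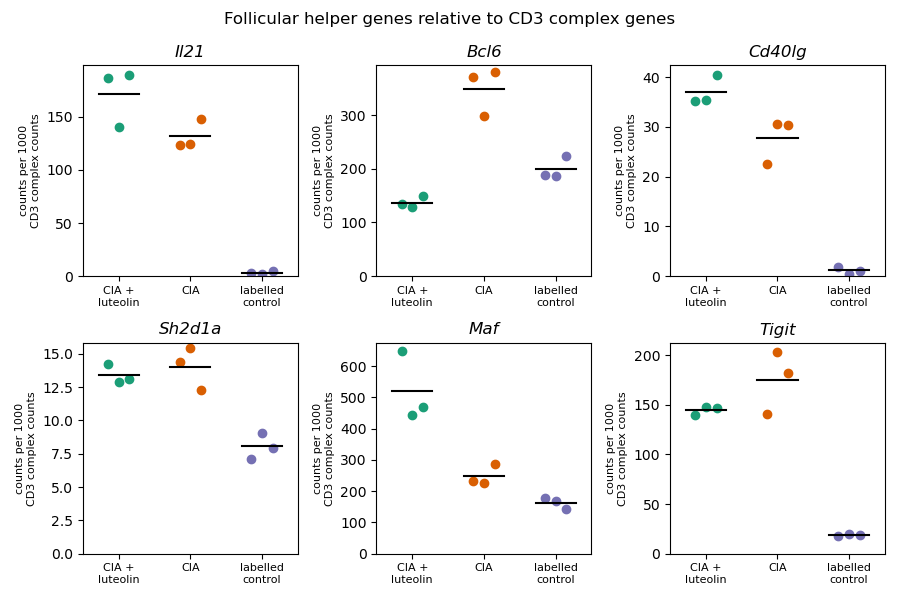
Counts of each of the 6 genes per 1000 counts of Cd3d, Cd3e, Cd3g and Cd247 in each library, on linear axes that start at 0. Points are libraries and lines are means of 3. Bcl6 is lowest in the luteolin libraries, at 128 to 149, and Maf is highest there, at 444 to 649.

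The genes whose pattern over the 9 libraries was most like that of each member were found as those with the smallest root mean square difference of log2 CPM, each gene centred on its mean, among 10987 named genes with at least 2 CPM on average. For Cd40lg these were Cd4 at 0.408, Il21 at 0.517 and Ccdc8 at 0.53. For Il21 they were Cd4 at 0.516, Cd40lg at 0.517 and Ccdc8 at 0.672. For Bcl6 they were Slc4a7, Rdh12 and Dennd11, at 0.133 to 0.151. For Sh2d1a they were H1f0, Cd300lb and Svil, at 0.1 to 0.148. For Maf they were Galm, Dok2 and Errfi1, at 0.155 to 0.172, and for Tigit they were Atcay, Nrn1 and Esm1, at 0.181 to 0.25. Among the members themselves Bcl6 stood 2.629 from Il21 and 0.636 from Sh2d1a. The likest genes of Il21 and Cd40lg were thus farther off than those of the other members. Unnamed gene models such as Gm12534, whose bases hold nearly all Il21 counts, were no candidates. The distances are descriptions over 9 libraries in 3 groups.

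The other genes of the follicular helper program did not move as 1 block. Over all tested genes 23.1% rose and 24.2% fell in luteolin against CIA, and 26.6% rose and 24.5% fell in CIA against control. In luteolin against control 24.2% rose and 20.8% fell. The counts of the lists and markers, above and below, are to be set beside these shares, and a count near them is no result about its list. Of 14 transcription factors of the program, 13 were tested, and in luteolin against CIA 1 rose, 6 fell and 6 did not pass, with a median log2 fold change of -0.48 beside -0.04 over all tested genes. Id3, an inhibitor of E proteins, fell by 2.02 ± 0.29 on the log2 scale, Nfatc2 by 0.8 ± 0.11 and Nfatc1 by 0.77 ± 0.12, both of these being calcium-responsive factors, and Tox, a nuclear factor that acts upstream of Bcl6, by 0.83 ± 0.24. In CIA against control 6 of the 13 rose, 5 fell and 2 did not pass, with a median of 0.09 beside -0.01 over all tested genes. Tox2, a relative of Tox, rose by 3.54 ± 0.36 and Tox by 2.56 ± 0.27 on the log2 scale. In luteolin against control 5 rose, 6 fell and 2 did not pass. The count of 6 that fell in luteolin against CIA was 3 without luteolin replicate 2, and the count that rose was 2 without CIA replicate 1. The count of 5 that fell in CIA against control was 3 without any 1 of the libraries labelled control.

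Surface and secreted proteins of the program, 20 genes and all tested, moved in both directions. In luteolin against CIA 6 rose, 8 fell and 6 did not pass, with a median of -0.21. Icos, the costimulatory receptor that sustains follicular helper cells, had 17.3, 15.2 and 18.3 CPM in the luteolin libraries, against 23.6, 45.0 and 83.9 CPM in CIA and 1.23, 1.74 and 1.96 CPM in the libraries labelled control. Its groups did not overlap, and it was 3.0-fold lower in luteolin against CIA (adjusted p = 0.00409, edgeR) and 31.1-fold higher in CIA against control (adjusted p = 1.72e-05). Pdcd1, which encodes PD-1, had 36.3, 40.1 and 37.4 CPM in the luteolin libraries, 28.4, 44.5 and 40.7 CPM in CIA and 5.73, 5.69 and 8.29 CPM in the libraries labelled control, so that like Il21 and Cd40lg it overlapped between luteolin and CIA. Its log2 fold change was 0.01 ± 0.18 in luteolin against CIA (adjusted p = 0.984, edgeR) and 2.53 ± 0.19 in CIA against control (adjusted p = 7.73e-06).

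Cxcr5, the chemokine receptor that takes cells into follicles and that B cells also express, was lower in CIA than in the libraries labelled control, unlike the 6 genes. It had 21.8, 24.8 and 20 CPM in the luteolin libraries, against 49.0, 37.9 and 23.0 CPM in CIA and 68.4, 67.0 and 65.7 CPM in the libraries labelled control. It was 1.65-fold lower in luteolin against CIA (adjusted p = 0.0172, edgeR), with overlap, and 1.83-fold lower in CIA against control (adjusted p = 0.00602), with none. Sostdc1, a secreted protein of a subset of follicular helper cells, fell by 2.92 ± 0.35 on the log2 scale in luteolin against CIA and rose by 6.31 ± 0.48 in CIA against control, where it had 0.1 to 0.127 CPM in the libraries labelled control. Slamf1, a receptor that SAP serves, fell by 0.83 ± 0.15 and rose by 1.19 ± 0.15 in those comparisons. Cd200, a surface glycoprotein, and P2rx7, a receptor for extracellular ATP, rose in luteolin against CIA, by 1.16 ± 0.2 and 1.37 ± 0.2, and Tnfrsf4, which encodes OX40, rose in both, by 0.58 ± 0.2 and 2.1 ± 0.22. Over the list, CIA against control had 10 genes higher, 6 lower and 4 that did not pass, with a median of 0.87, and luteolin against control had 11, 4 and 5, with a median of 0.44.

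Genes that oppose the program, 16 and all tested, moved in both directions as well. In luteolin against CIA 3 rose, 7 fell and 6 did not pass, with a median of -0.37, and in CIA against control 8 rose, 5 fell and 3 did not pass, with a median of 0.44. In luteolin against control 8 rose, 7 fell and 1 did not pass. Prdm1 encodes Blimp-1, the repressor that BCL6 antagonises, and it had 18.4, 16.9 and 18.1 CPM in the luteolin libraries, against 25.8, 27.1 and 20.4 CPM in CIA and 15.9, 17.0 and 18.8 CPM in the libraries labelled control. It moved in the direction of Bcl6 in both comparisons, 1.37-fold lower in luteolin against CIA (adjusted p = 0.00966, edgeR) and 1.42-fold higher in CIA against control (adjusted p = 0.00547). Tbx21, the factor of Th1 cells, fell by 1.21 ± 0.19 in luteolin against CIA as did Foxo1, a repressor of Bcl6, by 1.02 ± 0.16, and S1pr1, which draws cells out of lymphoid tissue, by 1.01 ± 0.18. Id2, an inhibitor of E proteins, rose by 1.03 ± 0.16. Stat5a, which relays IL-2 signals, fell by 0.88 ± 0.23 in luteolin against CIA and rose by 1.91 ± 0.23 in CIA against control, where Stat5b rose by 0.87 ± 0.12. The IL-2 receptor gene Il2rb rose by 1.36 ± 0.16 in CIA against control. Rora, a factor of Th17 cells, rose by 2.46 ± 0.29 in CIA against control, and its -0.7 ± 0.28 in luteolin against CIA did not pass. The count of 5 that fell in CIA against control was 3 without replicate 1 or replicate 2 of the libraries labelled control.

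**Figure D5:**
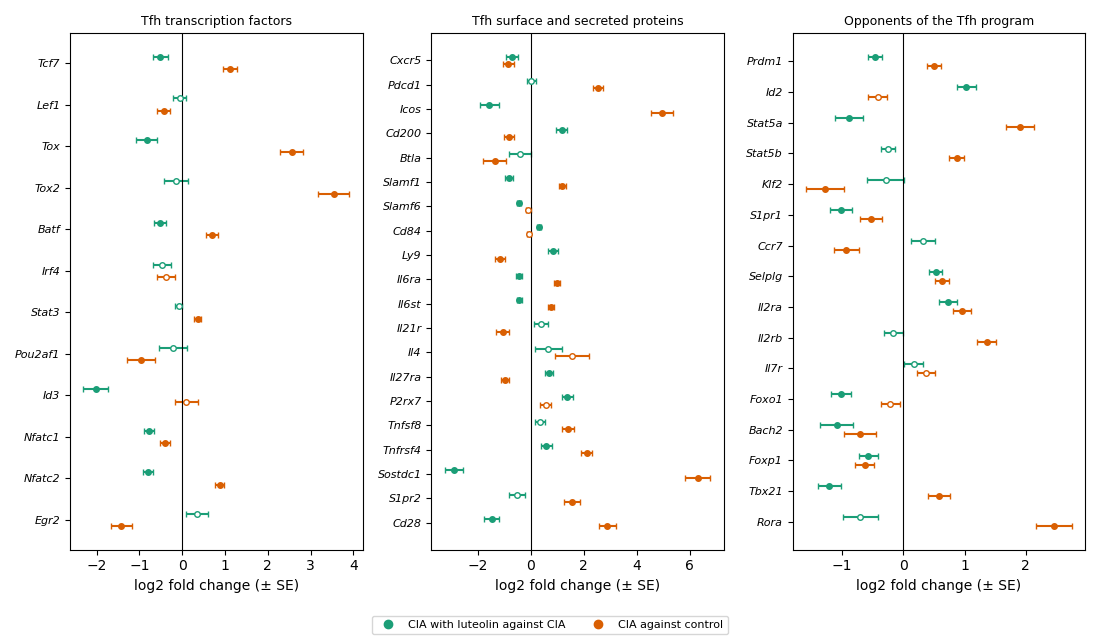
Log2 fold changes with the SE as bars for transcription factors (left, with 1 tested gene not drawn), surface and secreted proteins (middle) and opponents (right) of the follicular helper program, from edgeR's fit. Filled points passed an adjusted p of 0.05 and open points did not. Tox2 at 3.54 lies farthest to the right among the transcription factors drawn, in CIA against control, and among surface and secreted proteins Sostdc1 has the widest separation, at -2.92 in luteolin against CIA and 6.31 in CIA against control.

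A list of 21 genes, of which 20 were tested, held receptors, ligands and cofactors that the 6 proteins work with. It also held Icosl, Cd274 and Pdcd1lg2, whose receptors ICOS and PD-1 are not among the 6. In luteolin against CIA 6 rose, 5 fell and 9 did not pass, with a median of 0.16, in CIA against control 6 rose, 5 fell and 9 did not pass, with a median of -0.06, and in luteolin against control 4 rose, 6 fell and 10 did not pass. Cd40, the receptor of CD40 ligand on B cells, macrophages and dendritic cells, had 19.7, 26.1 and 22.7 CPM in the luteolin libraries, against 16.4, 9.16 and 4.5 CPM in CIA and 28.2, 31.2 and 31 CPM in the libraries labelled control. It was 2.27-fold higher in luteolin against CIA (adjusted p = 0.0139, edgeR) and 2.99-fold lower in CIA against control (adjusted p = 0.00291), so receptor and ligand differed in direction there. Il21r, the IL-21 receptor, was 2.11-fold lower in CIA against control (adjusted p = 0.00586), also opposite to its ligand, and did not pass in luteolin against CIA (adjusted p = 0.257). Nectin2 and Pvr, the ligands of TIGIT, rose in both comparisons, Nectin2 by 1.73 ± 0.26 and 2.01 ± 0.32 and Pvr by 0.35 ± 0.11 and 0.36 ± 0.11 on the log2 scale.

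Cofactors and kinases were on the same list. Ncor1, a corepressor that BCL6 recruits, fell by 0.71 ± 0.1 in luteolin against CIA and rose by 0.78 ± 0.1 in CIA against control, and Fyn, the kinase that SAP brings to its receptors, fell by 0.89 ± 0.11 and rose by 0.83 ± 0.11. Bcor, another BCL6 corepressor, fell by 0.5 ± 0.09 in CIA against control and did not pass in luteolin against CIA. Jak1, a kinase of the IL-21 receptor, fell by 0.6 ± 0.06 in luteolin against CIA and rose by 0.29 ± 0.06 in CIA against control. Icosl, the ligand of ICOS, fell by 0.82 ± 0.11 in luteolin against CIA, and Cd274, which encodes the PD-1 ligand PD-L1, rose by 1.09 ± 0.15. In luteolin against control the count of 6 partners that fell was 2 or 3 without any 1 of the luteolin libraries or of the libraries labelled control.

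Germinal centre B cell genes, the usual companions of follicular helper cells, were all tested. Of the 10, in luteolin against CIA 1 rose, 3 fell and 6 did not pass, with a median of -0.46, in CIA against control 4 rose, 4 fell and 2 did not pass, with a median of 0.21, and in luteolin against control 2 rose, 4 fell and 4 did not pass. Mybl1, a transcription factor of germinal centre B cells, fell by 0.4 ± 0.14 in luteolin against CIA. Fas, a death receptor, fell by 0.86 ± 0.17 in luteolin against CIA and rose by 1.52 ± 0.17 in CIA against control, and S1pr2, which confines germinal centre cells and is also on the list of surface proteins, rose by 1.56 ± 0.31 in CIA against control. Nuggc, a gene of germinal centre B cells, rose by 1.03 ± 0.15 in luteolin against CIA and fell by 0.72 ± 0.15 in CIA against control, and Ezh2, a histone methyltransferase of dividing germinal centre cells, fell by 0.9 ± 0.16 in CIA against control. The count of 1 that rose in luteolin against CIA was 2 without CIA replicate 1, and the count of 2 that rose in luteolin against control was 1 without luteolin replicate 1 or without replicate 1 or 2 of the libraries labelled control.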

How the data were processed

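RNA-seq counts of 9 mouse libraries in 3 groups were analysed, with each group taken from the sample's label. Stranded mRNA libraries were sequenced in pairs, per the labels' protocols, which give STRA, version 2.5.3a, as the mapping program and CHOK1GS, a hamster genome, as the reference. The submitters' processing notes name Trimmomatic 0.36 and mm39 instead. What the authors deposited is a table of raw read counts per gene. The authors counted with featureCounts (Subread 1.5.1) and name edgeR 3.12.1, per the labels' protocols. The strand setting and annotation release are not given in the sources used here. Even numbers made up 73.4% of the values from 1 to 10, against 52.8% of those from 201 to 1000, which is the pattern of counting each mate of a pair.

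Counts were tested with edgeR 4.0.16 in R 4.3.3 (filterByExpr, TMM with factors from 0.95 to 1.018, glmQLFit over the 9 libraries with a term per group, glmQLFTest, 2-sided). P-values were adjusted by the Benjamini-Hochberg method over 19348 genes, with a threshold of 0.05. An SE was taken as the size of the log2 fold change over the root of F, and levels as CPM after TMM scaling. The procedure was tested on simulated data. Replicates of a group were no copies of each other, since chi-square was at least 5.507 times its degrees of freedom for every pair.

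The 6 genes, the 5 lists and the 11 marker lists were chosen with earlier results of these data known. From each list, the 4 genes with the smallest p in each of CIA against control and luteolin against CIA are named, with Cxcr5, Pdcd1, Icos, Prdm1, Cd4 and Cd3e. A few genes that this rule names are not reported here. Cd40, Il21r, Pvr, Cd8a, Foxp3, C1qa, Hmox1, Siglec1 and S100a9 were picked from the lists with their values known. So were Elane, Mpo, Ly6g, Mmp9, Itga2b, Pf4 and the other CD3 genes. Alternatives were DESeq2 1.42.0, its size factors, upper-quartile scaling, no filter, at least 1 CPM in 3 libraries, only the 6 libraries compared, a replicate block, halved counts, another denominator in place of CD3 genes and leaving out each library. Leaving out the counts of antisense gene models was added after the data were seen. Promoter windows came from RefSeq tables and antisense blocks from the coordinates in the counts table.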

Additional observations from a re-analysis of the deposited data

How the results depend on the processing

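Of 324 values of the 6 genes over 18 alternatives, 314 kept their side of the threshold. No gene that passed in the main fit changed direction. All values of the 6 genes kept their side in both comparisons with the libraries labelled control. Those of Bcl6, Il21 and Cd40lg also did so in luteolin against CIA. Where a gene did not pass, its sign could change. Bcl6 ran from -0.05 to 0.08 in luteolin against control. In luteolin against CIA, Il21 ran from -0.49 to 0.11 and Cd40lg from -0.29 to 0.11. There, the log2 fold change of Sh2d1a passed with upper-quartile scaling (-0.55) and with halved counts (-0.51), and ran from -0.61 to -0.31 when 1 library was left out. That of Maf was 0.61 with the replicate block and did not pass, and ran from 0.45 to 0.82 with 1 library left out, and that of Tigit ran from -0.97 to -0.52. The members higher in luteolin against CIA numbered 0 with the replicate block and 0 to 1 with 1 library left out, and those lower 1 to 3. With only the 6 libraries compared, 3 transcription factors and 3 opponents fell in CIA against control, and at 1 CPM or more 7 partners rose in luteolin against control. With 1 library left out, transcription factors numbered 1 to 2 higher and 3 to 7 lower in luteolin against CIA and 3 to 5 lower in CIA against control, opponents 3 to 6 lower in CIA against control, partners 2 to 6 lower in luteolin against control, and germinal centre genes 1 to 2 higher in luteolin against CIA and 1 to 2 higher in luteolin against control. Tigit relative to the other denominator, of T cell signalling genes, was 8.39 times higher in luteolin against control, against 7.74 relative to CD3 genes. On that other denominator Il21 was 1.45 times as high in luteolin as in CIA, without overlap, against 1.3 with overlap on CD3 genes, and Sh2d1a 1.05 times, against 0.955, with overlap on both. The cause was not tested for any of these. Replicate numbers are shared by the groups, but nothing in the labels says that they pair samples. Deviations of same-numbered libraries correlated at 0.016 to 0.109, with 1 of 9 pairs over 0.1, although each of the 9 libraries correlated best with one of its own number. With the block 4546 genes were higher and 4602 lower in luteolin against CIA, against 4462 and 4686 without it. Depth limits Il21 and Cd40lg in the libraries labelled control, which held 44 and 16 counts in all.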

Other observations

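Markers of cells not yet described also differed between the groups, and their part in the levels of the 6 genes was not tested. Of 14 T cell markers, 5 fell in luteolin against CIA, 10 rose and 2 fell in CIA against control, and 9 rose and 2 fell in luteolin against control. They summed to 663 to 692 CPM in the luteolin libraries, 690.0 to 1060 CPM in CIA and 454 to 513 CPM in the libraries labelled control. Neutrophil markers passed in luteolin against CIA in 6 higher and 5 lower of 12 cases. Mpo and Elane, enzymes of the granules that early precursors make, rose, at 241 to 293 and 24.5 to 29.8 CPM in luteolin and 1.26 to 1.92 and 0.117 to 0.334 CPM in CIA. Ly6g and Mmp9, expressed by mature neutrophils, fell, at 1.31 to 1.96 and 49.1 to 52.9 CPM in luteolin and 5.45 to 10.4 and 121 to 202 CPM in CIA. Of the 12, 10 rose in CIA against control.

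Mast cell and basophil markers, 8 of them tested, rose in 7 cases in luteolin against CIA and in 8 in CIA against control, with sums of 262 to 284 CPM in the luteolin libraries, 82.2 to 154 CPM in CIA and 21.3 to 24.9 CPM in the libraries labelled control. Platelet and megakaryocyte markers rose in 2 of 7 cases and fell in 1 in luteolin against CIA, and rose in 7 of 7 in CIA against control. NK markers, 8 of them tested, rose in 3 and fell in 2 cases in luteolin against CIA, and again rose in 3 and fell in 2 in CIA against control. Plasma cell markers, 6 of them tested, rose in 3 cases and dendritic cell markers, 5 of them tested, in 3 cases in luteolin against CIA. In CIA against control plasma cell markers rose in 2 and fell in 2 cases, and dendritic cell markers rose in 1 and fell in 3. Erythroid markers, 5 of them tested, fell in 4 cases in luteolin against CIA, with sums of 0.831 to 1.43 CPM in the luteolin libraries and 4.67 to 5.56 CPM in CIA. Regulatory T cell markers rose in 7 of 7 cases and macrophage markers in 2 of 13, with 9 lower, in CIA against control.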
